A study of Homo sapiens with 4 samples.

Results

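The genes described here carry the TGF-beta signal and its read-out: the ligand gene TGFB1, the receptor genes TGFBR1 and TGFBR2, the SMAD genes SMAD3, SMAD4 and SMAD7, and the inhibitor-of-differentiation genes ID1, ID2, ID3 and ID4. ELF5 binding at them was read from 1 ChIP-seq peak list of T47D cells, a human cell line of luminal A breast epithelium kept in RPMI with serum and insulin and given no treatment. Each gene was represented by a fixed window on hg19, from 75 to 205 kb long, and a peak belonged to a window when its summit lay inside it. Without a gene annotation on hg19, a window's peaks cannot be assigned to the named gene or to a neighbour. The 10 windows were chosen by gene, not by peak values, though with earlier results of these data known. They held 104 of the 115384 peaks in the list. The series comprised 3 ELF5 ChIP replicates and 1 input sample from the same line, with no second condition. The list gives 1 value per peak with no column for a single replicate, which leaves replicate error unknown for every value below, and whether the replicates were separate cultures is not stated. All measurements are from 1 cell line, and the general protocol describes antibodies to different factors and lines, while the ELF5 samples each list their own antibody.

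ELF5 belongs to the ETS transcription factors, which bind DNA around a GGAA core, and it drives alveolar differentiation in the mammary gland. TGF-beta1, made from TGFB1, binds the type II receptor TGFBR2, which activates the type I receptor TGFBR1. TGFBR1 then phosphorylates SMAD3, which enters the nucleus with the shared partner SMAD4, while SMAD7 is induced by the pathway and blocks the receptor. The ID genes are classical targets of the related BMP branch and respond to TGF-beta in a cell-dependent way. Their products are helix-loop-helix proteins without a DNA-binding region that hold basic helix-loop-helix factors off DNA, and in mammary epithelium they are known for their part in growth and differentiation.

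The 250 bases before the start of each ID gene are shown because the 4 ID genes are the largest related family among the members and each has a single start in the RefSeq table, and because their windows held 8 of the 13 strong peaks described below. Those windows also held 52 of the 104 peaks. Their strong share of 15.4% (exact 95% interval 6.88% to 28.1%) is not set apart from the 10% of the list. The sequences are RefSeq's on GRCh38.p14, 5′ to 3′ on the strand of the gene, and capitals mark GGAAG or its reverse complement CTTCC. They lie at chr20:31605039-31605288 (plus strand) for ID1, chr2:8681806-8682055 (plus strand) for ID2, chr1:23559502-23559751 (minus strand) for ID3 and chr6:19837120-19837369 (plus strand) for ID4. The peaks are on hg19, and whether any of them covers these bases was not analysed here.
ID1: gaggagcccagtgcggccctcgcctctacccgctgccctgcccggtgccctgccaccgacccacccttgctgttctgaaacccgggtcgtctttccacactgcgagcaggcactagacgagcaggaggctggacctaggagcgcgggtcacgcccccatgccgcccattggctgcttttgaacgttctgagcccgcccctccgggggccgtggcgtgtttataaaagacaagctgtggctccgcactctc
ID2: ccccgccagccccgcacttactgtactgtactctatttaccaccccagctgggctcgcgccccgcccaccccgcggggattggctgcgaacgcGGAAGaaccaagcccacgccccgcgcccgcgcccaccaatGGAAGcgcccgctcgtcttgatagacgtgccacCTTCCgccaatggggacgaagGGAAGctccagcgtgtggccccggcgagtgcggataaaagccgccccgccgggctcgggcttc
ID3: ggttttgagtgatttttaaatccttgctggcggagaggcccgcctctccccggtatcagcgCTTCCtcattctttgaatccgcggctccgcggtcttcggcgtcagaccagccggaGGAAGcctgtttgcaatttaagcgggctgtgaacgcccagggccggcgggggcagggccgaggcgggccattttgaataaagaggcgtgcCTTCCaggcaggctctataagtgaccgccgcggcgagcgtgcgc
ID4: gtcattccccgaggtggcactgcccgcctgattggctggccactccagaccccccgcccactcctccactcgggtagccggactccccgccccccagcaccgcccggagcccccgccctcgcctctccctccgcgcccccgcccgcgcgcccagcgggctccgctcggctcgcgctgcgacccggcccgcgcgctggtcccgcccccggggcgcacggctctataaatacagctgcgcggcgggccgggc

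ID2 had 4 matches and ID3 had 3, whereas ID1 and ID4 had none within these bases. The ID2 matches began 157, 117, 84 and 63 bases before the start, and those at 157 and 84 bases are also part of the longer CGGAAG or its reverse complement, which begins 158 and 84 bases before the start. The ID3 matches began 189, 134 and 44 bases before the start. GGAAG on either strand was present before at least 1 listed start of 6 of the 10 members (TGFB1, TGFBR1, SMAD3, SMAD7, ID2 and ID3), against 69.3% of the 27305 genes in the table. CGGAAG was present for 2 members, TGFBR1 and ID2, against 19.4% of genes, and CCGGAAGT for none, against 4.13% of genes. TGFBR1 has 8 listed starts, SMAD3 5 and SMAD7 3, and a gene with more starts has more bases in which to match. Counted by start, GGAAG was present before 10 of the 24 member starts (41.7%), against 65.1% of all starts. CGGAAG was present before 2 of them (8.33%), against 16.5% of all starts. Of 46 other genes of the TGF-beta and BMP pathways, 40 were matched in the table, and 31 of these held GGAAG and 6 CGGAAG (ACVR1, SMAD1, SMAD2, SMAD5, TGIF1 and ZFYVE9). A match describes the letters only and is not a binding site, and with 10 members 1 gene more or less moves a share by 10 percentage points. Peaks at those 46 genes were not analysed here.

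The windows differed widely in how many ELF5 peaks they held, but they also differed in length. SMAD3 and ID2, for example, had equal counts but 58.5 and 141.2 peaks per Mb. ID1 had 21 peaks, SMAD7 and ID3 had 15 each, SMAD3 and ID2 had 12 each, TGFB1 had 11, TGFBR1 and TGFBR2 had 5 each, and SMAD4 and ID4 had 4 each. The median fold enrichment over local background, the authors' value for each peak, was 4.29 for the 104 window peaks, against 3.66 for the whole list, and 69 of the 104 (66.3%) lay above the list's median, against 49.8% of the list. Strong peaks, defined as the strongest 10% of the list by fold and beginning at a fold of 11.99, numbered 13 of the 104 window peaks (exact Clopper-Pearson 95% interval of the share 6.83% to 20.4%), against 10% of the list. That interval spans the share over the list. It treats neighbouring peaks as independent and reflects counting error alone, so it gives no test of the windows' share. By window, ID1 and ID3 had 3 each, TGFB1 and SMAD7 had 2 each, SMAD4, ID2 and ID4 had 1 each, and TGFBR1, TGFBR2 and SMAD3 had none. These counts are small, and the exact 95% interval of each window's share includes the 10% of the list. It was 3.05% to 36.3% at ID1, 4.33% to 48.1% at ID3, 0% to 26.5% at SMAD3 and 0% to 52.2% at each receptor. Among the strongest 5% of the list were 7 window peaks (6.73%), against 5.01% of the list, from TGFB1, SMAD4, ID1, ID2 and ID3.

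**Figure D1:**
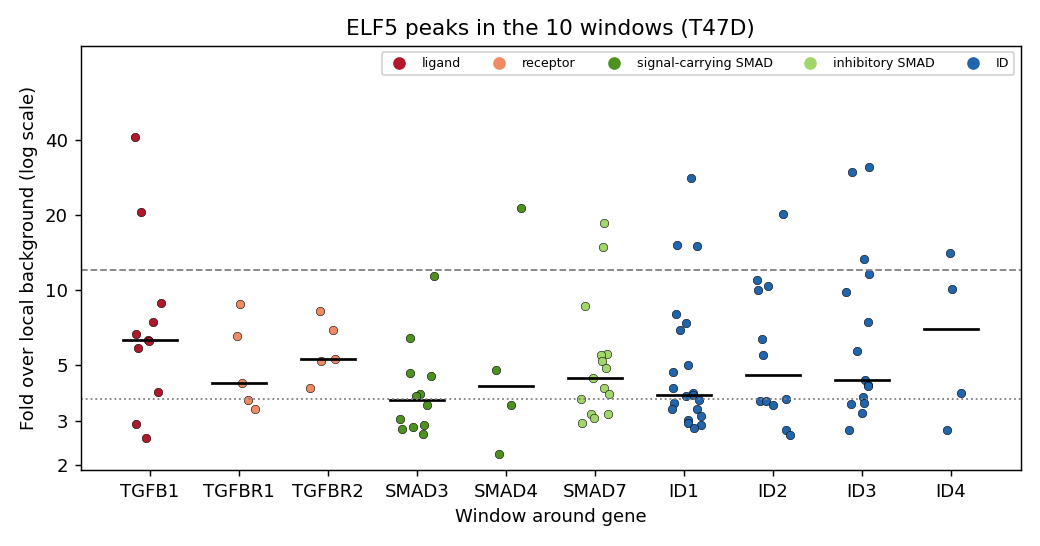
Fold over local background of each of the 104 ELF5 peaks (points, log axis), by gene window and coloured by role, with the window's median as a bar. The dashed line is the fold of 11.99 at which strong peaks begin and the dotted line the list's median of 3.66; both receptor windows and SMAD3 lie wholly below the dashed line.

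The TGFB1 window (chromosome 19, 41.8 to 41.9 Mb, band 19q13.2) held the strongest peak of all 10 windows. That peak covered chr19:41815897-41816467, 33.9 kb before the window's centre. Its fold was 41.1 (exact Poisson 95% interval of the pileup, 34.6 to 48.5), from a pileup of 138 fragments at the summit over a local background of 2.08, both recovered from the authors' fold and p. It was stronger than 99.7% of the list. The second strong peak, at chr19:41869604-41870286, had a fold of 20.5 (15.9 to 25.9) and lay 53.6 kb from the first, so the window held strong peaks on both sides of its centre. The intervals of these peaks did not overlap.

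The remaining 9 TGFB1 peaks ran from a fold of 2.57 to 8.89. The one of 8.89 (6.37 to 12.1), at chr19:41815207-41815591, stood 0.632 kb from the strongest peak. The median of the window, 6.31, was the highest of any window with more than 5 peaks. In density, 110.0 peaks per Mb, it hardly differed from its band, at 109.6 peaks per Mb, or from chromosome 19 as a whole, at 93.6. In the RefSeq order of protein-coding genes on GRCh38, TGFB1 lies between CCDC97 and B9D2, and the window's peaks cannot be assigned to 1 of these genes from the list alone.

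The receptor windows held 10 peaks, and none was strong (exact 95% interval of the share 0% to 30.8%), against 10% of the list, a share that this interval includes. TGFBR1 (chromosome 9, 101.83 to 101.955 Mb, band 9q22.33), which encodes the kinase that phosphorylates SMAD3, had 5 peaks with folds of 8.82, 6.54, 4.24, 3.62 and 3.34. The pair in front lay 1.23 kb apart, at chr9:101866685-101867538 and chr9:101867640-101868355. The first had the higher fold, 8.82 (5.98 to 12.6), over a background of 2, and the second, with a fold of 6.54 (4.76 to 8.78), had the larger pileup, 42 against 28 fragments, over a background of 5. By p the second ranked first in the window. Their intervals overlapped, and the order of the pair was not tested.

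TGFBR2 (chromosome 3, 30.61 to 30.775 Mb, band 3p24.1), which encodes the receptor that binds the ligand first, had 5 peaks with folds of 8.24, 6.92, 5.29, 5.19 and 4.04. The strongest was narrow, 209 bp, at chr3:30723516-30723724, with a fold of 8.24 (5.62 to 11.7). The next pair by fold, at chr3:30647915-30648386 and chr3:30648467-30648914, lay 0.67 kb apart, with folds of 6.92 (4.58 to 10.1) and 5.29 (3.59 to 7.56). All 10 receptor peaks had the authors' q under 0.05, but so did 99 of the 104 window peaks and 87.5% of the list, so this does not set them apart. The receptor windows held moderate peaks, with folds from 3.34 to 8.82. Their densities were 0.966 and 0.954 times those of chromosomes 9 and 3, which held 41.4 and 31.8 peaks per Mb. Against their bands they were 1.04 and 2.13 times as dense, and both windows held more peaks than the median of 2 in stretches of equal length.

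The 3 SMAD windows were unlike each other. SMAD3 (chromosome 15, 67.32 to 67.525 Mb, bands 15q22.33 and q23), the longest window, had 12 peaks spread over it at a median distance of 10961 bp between neighbouring summits, and a median fold of 3.61, below the 3.66 of the list. Its strongest peak, chr15:67357284-67358825, was broad at 1542 bp, with a fold of 11.4 (8.57 to 14.9) from a pileup of 52. It missed the start of the strong peaks at 11.99, but its interval includes that value. The next were at chr15:67419659-67419872, with a fold of 6.45 (4.37 to 9.21), and chr15:67336628-67336777, with a fold of 4.67 (2.84 to 7.31). The other 9 ran from 2.66 to 4.53.

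SMAD4 (chromosome 18, 48.515 to 48.65 Mb, band 18q21.2), the partner shared by both branches of the pathway, had 1 strong peak among 4. It covered chr18:48556366-48557193, with a fold of 21.4 (16.6 to 27.2) from 65 fragments over a background of 1.81, the lowest in the list. The other 3 had folds of 4.80 (3.03 to 7.28) at chr18:48636769-48637077, 3.48 (2.14 to 5.38) at chr18:48556064-48556302 and 2.20, and the last had an authors' q of 0.228. The strong peak therefore stood far above the rest of its window.

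SMAD7 (chromosome 18, 46.405 to 46.52 Mb, band 18q21.1), the inhibitor, had 15 peaks and carried the broadest of all window peaks. Its strong peaks formed a pair with summits 2.54 kb apart. The first, chr18:46475669-46477522, was 1854 bp wide with a fold of 18.5 (14.2 to 23.8), and the second, chr18:46477717-46479455, was 1739 bp wide with a fold of 14.9 (11.2 to 19.5). Their intervals overlapped. A peak with a fold of 5.21 lay 358 bp from the summit of the first, and these 3 belonged to a run of 6 peaks over 20.4 kb. The third by fold, chr18:46405299-46405696, had a fold of 8.67 (6.18 to 11.9) at the window's edge.

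SMAD7 and SMAD4 share chromosome 18, which held 15.9 peaks per Mb, yet the SMAD7 window had 130.4 peaks per Mb and the SMAD4 window 29.6. The SMAD7 density was 8.23 times that of its chromosome and 2.96 times that of its band, and the SMAD4 density 1.87 and 4.61 times. More peaks were found in the SMAD7 window than in 99.3% of stretches of equal length laid end to end along chromosome 18, and than in 92.1% along chromosomes 1 to 22 and X. Chromosome means include long stretches with few genes, and the windows were placed around genes, so these ratios describe the windows and test nothing.

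Pooled, the ID windows were the densest group, with 160.0 peaks per Mb, against 61.5 in the other 6 windows and 37.99 over chromosomes 1 to 22 and X. Among the other 6, SMAD7 had 130.4 and TGFB1 110.0 peaks per Mb. Against their bands the ID windows did not stand out, with ratios of 2.66 at ID1, 2.31 at ID2 and 2.46 at ID4. The ratios were 4.61 at SMAD4, 2.96 at SMAD7, 2.13 at TGFBR2, 1.04 at TGFBR1 and 1.00 at TGFB1. ID3 and SMAD3 cross a band edge and have no such ratio. Pooled strong peaks followed the same order, at 24.6 per Mb in the ID windows, 5.92 in the other 6 and 3.80 over those chromosomes. Window by window this order did not hold. ID1 and ID3 had the most strong peaks per Mb, and TGFB1 came next. SMAD7 followed at 17.4, then ID2 and ID4 at 11.8 each and SMAD4 at 7.41, while TGFBR1, TGFBR2 and SMAD3 had none. Strong peaks made up 15.4% of all peaks in the ID windows (exact 95% interval 6.88% to 28.1%), 9.62% in the other 6 (3.20% to 21.0%) and 10% over the list. These intervals overlap, but they treat neighbouring peaks as independent at 52 peaks a group, so they do not test a difference in the share. Typical strength went the other way. The median fold of the ID windows, 4.09, was below that of the other 6 windows. Peaks above the list's median fold made up 63.5% in the ID windows, against 69.2% in the other 6. These differences were not tested either. Peaks as such were more frequent per Mb in the ID windows, of which ID1 alone held 21 of the 52 peaks. The ID windows were also the shortest, at 75 to 85 kb, against 100 to 205 kb for the other 6. The part of window length in this density was not tested. ID4 was an exception within its family, with 47.1 peaks per Mb, below the 61.5 of the other 6 windows.

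**Figure D2:**
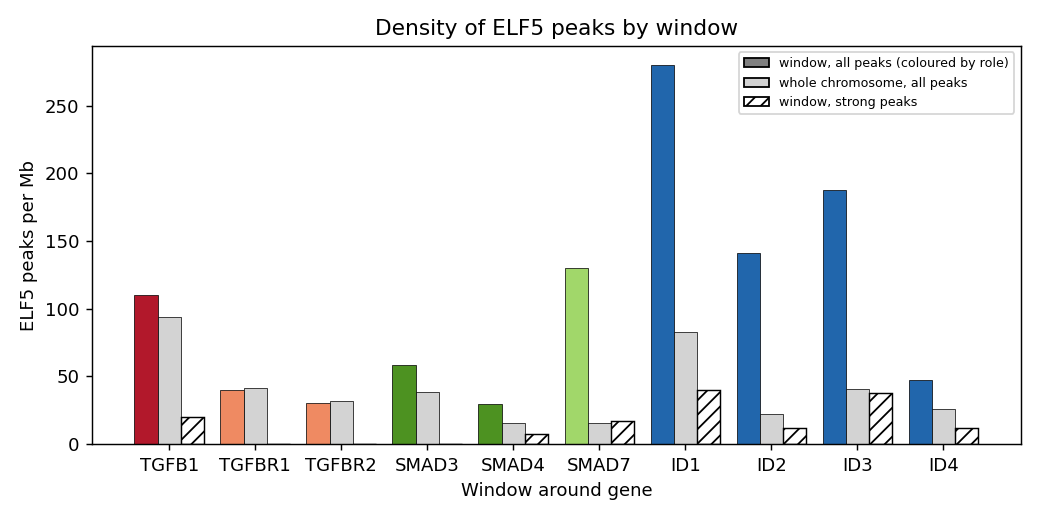
ELF5 peaks per Mb in each gene window (coloured by role as in the plot of folds), on the whole chromosome that carries it (grey) and for strong peaks in the window only (hatched). ID1 reaches 280.0 peaks per Mb and ID3 187.5, while TGFBR1, TGFBR2 and SMAD3 have no strong peak.

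ID1 (chromosome 20, 30.155 to 30.23 Mb, band 20q11.21) had the most peaks in the shortest window. Its 280.0 peaks per Mb compared with 105.2 in its band and 82.5 on chromosome 20, and its count exceeded that of 97.9% of the 40474 stretches of 75 kb along chromosomes 1 to 22 and X and that of 93.7% on chromosome 20. The strongest, chr20:30160173-30161498, was 1326 bp wide, with a fold of 28.1 (23.8 to 33.0) from 147 fragments, the highest pileup of all window peaks. It lay 31.4 kb before the window's centre, in a run of 12 peaks of which 7 were outside the window. The next ones were near the centre and 2.33 kb apart, with folds of 15.2 (12.4 to 18.4) at chr20:30198284-30198916 and 15 (11.7 to 19) at chr20:30200470-30200958. Those 2 could not be ranked.

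The other 18 ID1 peaks ran from 2.80 to 8.01, and 13 of the 21 belonged to a single run of 26.4 kb. The background was higher here than in any other window, with a median of 4.19 fragments against 3.105 over the list, and it reached 11 at chr20:30191837-30192320, where 47 fragments gave a fold of only 3.65. The median fold of the window, 3.80, was close to the list's. A fold is a ratio to this background, and its part in the lower folds of ID1 was not tested. Narrowing the windows by 10 kb at both ends left 13 peaks and a strongest fold of 15.2 in ID1, since the peak of 28.1 lies in the outer part. In RefSeq order, ID1 lies between MCTS2 and COX4I2.

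ID3 (chromosome 1, 23.845 to 23.925 Mb, bands 1p36.12 and p36.11) had 2 peaks of nearly equal height. The peak at chr1:23857631-23858181 had a fold of 31.2 (26.2 to 36.8) from 136 fragments, and the peak at chr1:23885673-23886427 a fold of 29.8 (25 to 35.4) from 130 fragments, both over a background of 3. They lay 28.3 kb apart, the first 27.1 kb before the window's centre and the second 1.17 kb after it, and their intervals overlapped almost wholly. The remaining strong peak, at chr1:23866254-23866768, had a fold of 13.3 (9.60 to 18) over the lowest background. One more peak, with a fold of 11.6 (8.66 to 15.4), fell just under the start of the strong class.

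The other ID3 peaks ran from 2.75 to 9.80, and all 15 had a q under 0.05, as did 87.5% of the list. The window's 187.5 peaks per Mb were 4.61 times the density of chromosome 1. The peaks fell into runs of 5, over 11.6 kb, and 8, over 14.0 kb, each with at least 1 strong peak, and 2 weak peaks near the far end. ID3 lies between E2F2 and RPL11 in RefSeq order, and the window's peaks cannot be assigned to 1 of these genes from the list alone.

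ID2 (chromosome 2, 8.78 to 8.865 Mb, band 2p25.1) had its peaks bunched at the centre. Its strongest, chr2:8821593-8822390, had its summit 0.44 kb before the centre, with a fold of 20.2 (16.7 to 24.3) from 110 fragments over a background of 4. This was the only strong peak of the window, but the next 3 were close to that class, with folds of 10.9 (7.73 to 15.1) at chr2:8824964-8826159, 10.4 (7.17 to 14.6) at chr2:8833458-8833697 and 9.99. All 4 belonged to a run of 10 peaks over 17.1 kb. The window's 141.2 peaks per Mb compared with 61.2 in its band and 22.1 on chromosome 2.

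ID4 (chromosome 6, 19.8 to 19.885 Mb, band 6p22.3) had the fewest peaks of the family. Its folds were 14.1, 10.1, 3.89 and 2.74. The strong one, chr6:19838225-19839540, was broad at 1316 bp, with a fold of 14.1 (10.9 to 18.1), and a weaker peak of 3.89 (2.33 to 6.16) at chr6:19837559-19837718 lay 1.22 kb from it. The second by fold, at chr6:19804661-19805391, had a fold of 10.1 (7.60 to 13.2) and stood alone 37.5 kb before the centre. The intervals of 14.1 and 10.1 overlapped.

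**Figure D3:**
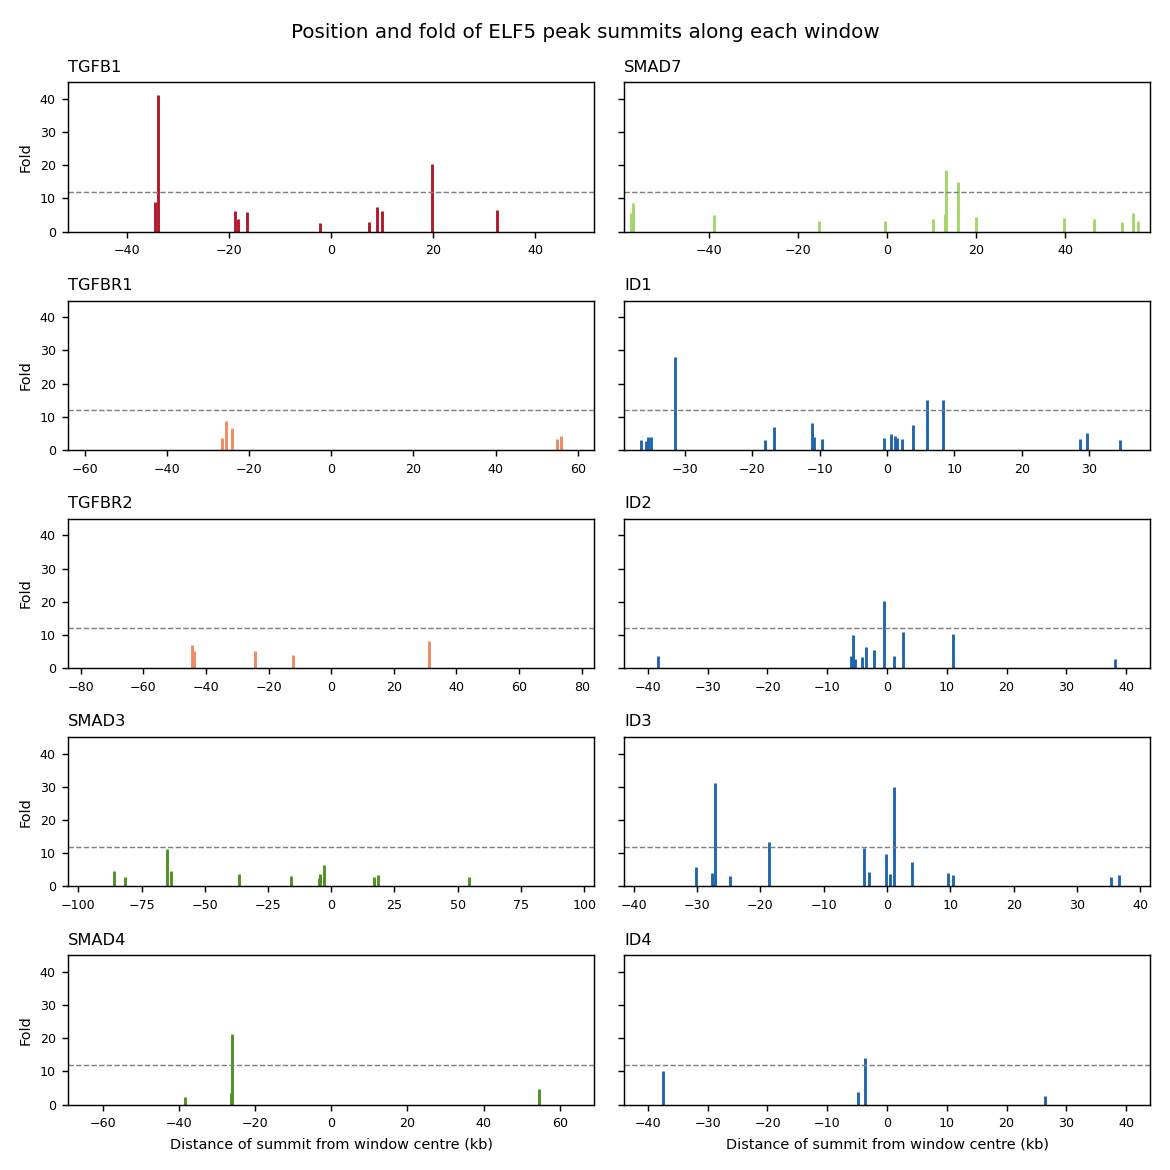
Distance of each ELF5 summit from the centre of its window (kb, x axis, a different scale in each panel) and its fold (line height), for the 10 windows, with a dashed line at the fold of 11.99. The highest line of ID2 and the second highest of ID3 stand within 0.44 and 1.17 kb of the centre, while the highest lines of TGFB1 and ID1 stand 33.9 and 31.4 kb before it.

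Ordered by the fold of the strongest peak, the windows ran TGFB1 (41.1), ID3 (31.2), ID1 (28.1), SMAD4 (21.4), ID2 (20.2), SMAD7 (18.5), ID4 (14.1), SMAD3 (11.4), TGFBR1 (8.82) and TGFBR2 (8.24). Neighbours in this order all had overlapping counting intervals. Overlap alone does not show that neighbouring folds are equal, and no step between neighbours was tested. Of the 45 pairs of windows, the intervals were apart for 27 and overlapped for 18. TGFB1 was apart from every other window except ID3, and the receptor windows were apart from every window except ID4, SMAD3 and each other. By pileup the order of the first 3 was different, with 147 fragments at ID1, 138 at TGFB1 and 136 at ID3.

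**Figure D4:**
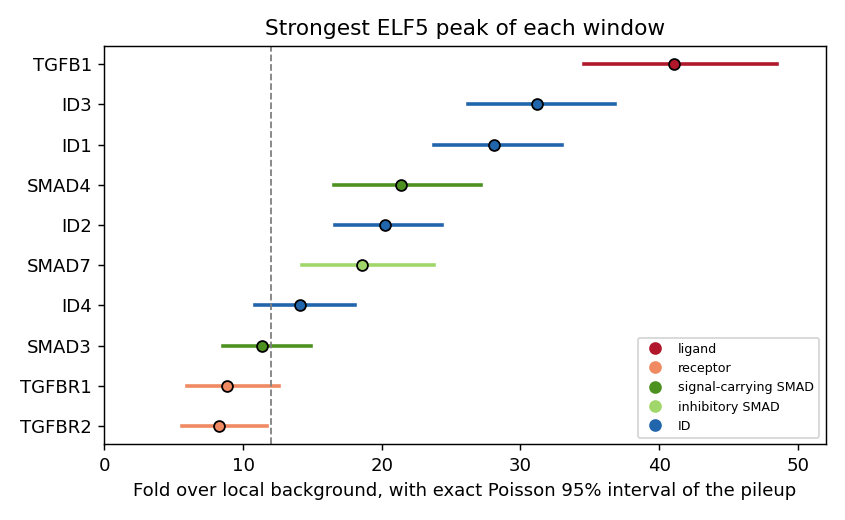
Fold of the strongest ELF5 peak of each window (point) with the exact Poisson 95% interval of its pileup at a fixed background (line), coloured by role, and a dashed line at 11.99. Intervals of neighbours overlap all the way down, from TGFB1 at 41.1 to TGFBR2 at 8.24.

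At least 1 strong peak was present in 7 of the 10 windows. Among all stretches of equal length along chromosomes 1 to 22 and X, the share with a strong peak was 19.5% at the length of the ID1 window, 20.4% at that of ID3, 21.3% at that of ID2 and ID4, 23.8% at that of TGFB1, 26.1% at that of SMAD7, 27.7% at that of TGFBR1, 28.9% at that of SMAD4, 32.6% at that of TGFBR2 and 36.6% at that of SMAD3. The stretches include regions with no gene and gaps in the assembly, which the windows do not represent. With stretches that held at least 1 peak, the shares were higher, from 34.1% at the ID1 length to 47.8% at the SMAD3 length. The 3 windows without a strong peak were among the 4 longest. With the strongest 20% of the list in place of 10%, all 10 windows held at least 1.

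The strong window peaks were wide as well as high. Their median width was 755 bp, against 243 bp for the other window peaks, and over the list the medians were 818 and 201 bp. Only 1 of the 13 was narrower than 500 bp, the ID1 peak of 489 bp. Peaks of at least 1000 bp numbered 6 in the windows, 5.77% of the peaks, near the 5.05% of the list: the SMAD7 pair and 1 each at SMAD3, ID1, ID2 and ID4, of which those at SMAD3 and ID2 were not strong. The smallest width of 135 bp, which 9.27% of the list had, was found for 3 window peaks, 2 at SMAD7 and 1 at ID3.

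The depth behind a typical window peak was low. The pileup at the summit had a median of 20 fragments and ran from 8 to 147, against a median of 16 over the list. The whole interval of the fold lay above the list's median fold for 36 of 104 window peaks, 7 of them at TGFB1, 6 each at ID1 and ID3 and 5 at ID2, against 24.7% of the list. For 9 of the 13 strong peaks it also lay wholly above 11.99. Of the 104 window peaks, 7 had the same fold as another one: for example, 1 peak each at SMAD3, SMAD4 and ID2 had 18 fragments over a background of 4 and a fold of 3.48. These intervals treat the background as known, reflect counting error alone and ignore that a summit is picked as the highest point.

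**Figure D5:**
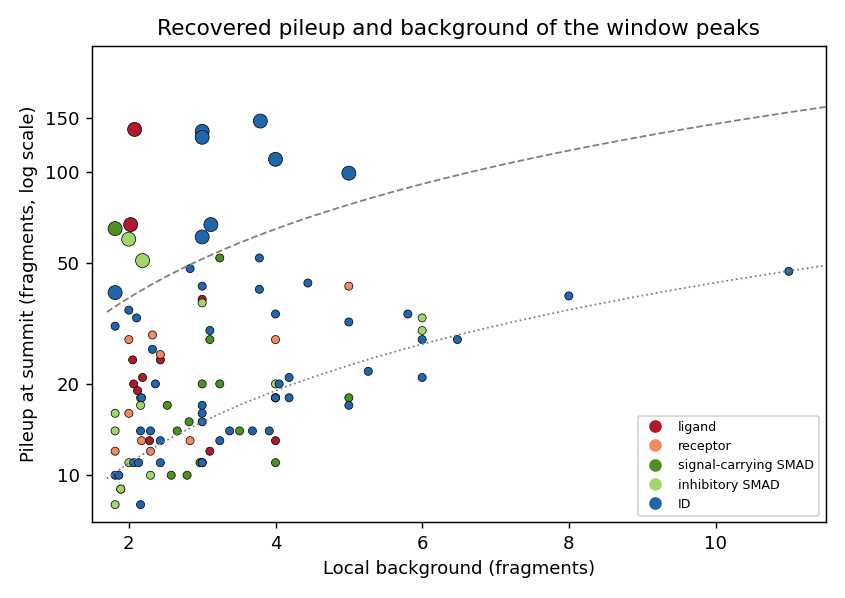
Fragment pileup at the summit (y axis, log scale) against local background (x axis, fragments) for the 104 window peaks, coloured by role, with strong peaks as large points. The dashed and dotted lines mark folds of 11.99 and 3.66; strong peaks lie at backgrounds from 1.81 to 5 with pileups from 40 to 147, and the ID1 peak over a background of 11 lies near the dotted line.

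Window peaks lay near other peaks. The median distance to the nearest summit was 1226 bp, against 1563 bp for the list. Joining neighbouring summits up to about 13 kb apart put them into 34 runs. Runs of 10 or more peaks held 28 of the window peaks (26.9%), against 42.4% of the list, and all 28 were at ID1 or ID2. Peaks alone in their run numbered 10 (9.62%), against 15.9% of the list. ID1 and ID2 thus held the long runs, while at TGFB1, the receptors and the SMADs the runs had at most 7 peaks.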

How the data were processed

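ELF5 was immunoprecipitated from sonicated T47D nuclei (3 replicates, 1 input), and fragments of 200 to 300 bp were selected, per the labels' protocols. The authors deposited 1 list of peaks. Its build is hg19 per the submitters' processing notes; the aligner, caller, cut-off and whether reads were pooled: not given in the sources used here. Per the file headers the list is named for IDR and for 1-3, which leaves unclear which replicates it rests on. The authors' deposited columns are a score per peak (the whole part of 10 times −log10 p in all 115384 rows), a signal value read as a fold ratio of ChIP to local background, a −log10 p and a −log10 q. Fold, p and q are the authors' own values and served only to describe and rank peaks within the list.

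Peaks were placed by summit in the 10 windows. Members and lists were chosen with earlier results of these data known. Pileup and background were recovered from fold and p (factor 0.91, pseudocount 1, Poisson tail), which fitted every one of the 115384 deposited p to 0.001 in −log10 units; the total depth per sample is unknown. The recovery was tested on simulated data. Intervals are exact Poisson for folds and exact binomial for shares, at 95%. With 1 list and no groups, no test was made. In each window the strongest 3 peaks by fold and all strong peaks are named; others are given by their range or singled out after their values were seen. Bands and chromosome lengths came from circlize 0.4.16 and GenomeInfoDb 1.38.1. No hg19 genome or gene annotation was used, so distances to gene starts are not reported; RefSeq tables (GRCh38.p14) gave gene order and promoter sequences. The software was matplotlib 3.10.9, pandas 2.3.3, scipy 1.17.1 and numpy 2.4.6 under Python 3.11.15.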

Additional observations from a re-analysis of the deposited data

How the results depend on the processing

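Of 29 alternative values for the summary results, 21 kept within the stated bounds and 8 moved. They are counts, folds and numbers of runs without a sign, so none could change direction. For single windows 176 of 198 kept within the bounds. A count was taken to move past a ratio of 1.5, and a fold once outside its 95% interval. With only the highest 50% of folds, there were 69 window peaks with a median fold of 6.31, against 104 and 4.29. Strong peaks numbered 7 with the strongest 5% and 30 with the strongest 20%, by construction of the class. Those 30 are 28.8% of the window peaks, against 20% of the list, and those 7 are 6.73%, against 5.01%. The median fold was 5.50 without the pseudocount. Joining at 25 kb gave 19 runs. GGAAG was present for 6 members and CCGGAAGT for 0, against 2 for CGGAAG. Windows 10 kb wider or narrower at both ends, q under 0.05, joining summits within 500 bp, placing peaks by overlap and ranking by p left 12 to 15 strong peaks and 7 windows that held one. The limits on q and on the highest 50% of folds could not remove a strong peak, so those settings left the strong peaks unchanged by construction. No paired analysis was possible because replicates have no columns of their own, and leaving out replicates was not run for the same reason. The median pileup of 20 limits the precision of a typical window peak.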

Other observations

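High ELF5 peaks also lay outside the windows, from 3.26 to 74.6 kb beyond their edges. The first peak after the TGFB1 window, 3.26 kb past its end, had a fold of 36.1, close to the 41.1 of the strongest TGFB1 peak. The first peak before the SMAD4 window, 20.6 kb from its edge, had a fold of 47.6, above every peak inside the 10 windows, and the first after it, 74.6 kb away, had a fold of 27.9. The first peak after the SMAD3 window, 22 kb past its end, had a fold of 28.1, while the highest fold inside was 11.4. These peaks were chosen after their values were seen. In RefSeq order the neighbours on the 2 sides are CCDC97 and B9D2 for TGFB1, ELAC1 and MEX3C for SMAD4, and SMAD6 and AAGAB for SMAD3. Which gene each of these peaks lies at was not analysed here.

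A strong peak with a fold of 13.5 also lay 7655 bp past the end of the ID4 window, so a window 10 kb wider would hold 2 strong peaks. At the other extreme, the peak before the ID4 window was 207 kb away and that after the ID2 window 113 kb away. A SMAD7 peak with a fold of 5.50 lay 3 bp inside the window's start.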
